A study of Mesocricetus auratus with 8 samples.

Results

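The genes described here belong to the lipid side of ferroptosis, the iron-dependent form of cell death that follows peroxidation of membrane phospholipids. They were taken by symbol from a list of 10: Acsl3, Acsl4, Lpcat3, Mboat1, Mboat2, Por, Aifm2, Dhodh, Gch1 and Pebp1. Of these, 9 were found among the 17590 genes with values in the deposited table, and all 9 had enough reads to be among the 12506 genes tested. No row carried the symbol Por, the gene of the reductase that passes electrons to cytochrome P450 enzymes, and it was not analysed here. Satellite cells (SCs), the muscle stem cells, had been isolated from the hindlimb muscle of wild-type, sexually mature male Syrian hamsters and enriched by preplating, a step that removes fibroblasts. The 4 control libraries came from cells kept at 37°C and named day 3 in the titles. The 4 cold libraries came from cells given 48 h at 37°C, then 24 h at 37°C in growth medium with 100 mM HEPES, then 24 h at 4°C. The study describes RNA taken before and after exposure to cold, and does not say outright whether the controls had the HEPES step. The treatment labels give the controls 3, 4, 5 and 6 days at 37°C for replicates 1 to 4, against the single day of their titles. By the titles the cold libraries were collected 24 h after the controls, whereas by the treatment labels control replicates 2 to 4 were cultured at least as long as the cold libraries. Temperature and culture time therefore cannot be told apart.

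Membrane lipids become prone to peroxidation when polyunsaturated fatty acids are activated to acyl-CoA and inserted into phospholipids. ACSL4 and LPCAT3 are known for these steps, whereas ACSL3, MBOAT1 and MBOAT2 are known for handling monounsaturated fatty acids, which resist peroxidation. GPX4 reduces lipid peroxides with glutathione. Other routes work without it: AIFM2 (also called FSP1) and DHODH reduce coenzyme Q to a radical-trapping form at the plasma membrane and in mitochondria, and GCH1 makes the first intermediate of tetrahydrobiopterin, another radical trap. PEBP1 binds lipoxygenases and directs them to phospholipids.

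In a comparison within replicate numbers, Mboat2 was 17.7% lower after 24 h at 4°C. The transcripts of the other 8 of the 9 genes lay close to their 37°C levels there. This comparison was an alternative to the main one, which left the replicate number out. Without regard to replicate number, edgeR's quasi-likelihood test called 0 of the 9 genes at a Benjamini-Hochberg adjusted p under 0.05 and 0 of 9 at an unadjusted p under 0.05. Of all genes tested, 0.072% were called, every one of them lower in the cold, and 6.7% had an unadjusted p under 0.05. DESeq2 called 0 of the 9 genes and 1.14% of all genes. When the replicate number was kept as a block, so that each cold library was set against the control of the same number, 1 of the 9 was called, lower, where 4.07% of all genes were called lower and 1.26% higher. DESeq2 with the block also called 1 of the 9 and 2.88% of all genes. None of the 9 reached the study's threshold for a differentially expressed gene, which adds an absolute log2 fold change of at least 1. In that blocked fit, 0.848% of all genes did. The share of the 9 is too small a number of genes to set against these backgrounds.

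Expected counts summed to between 16530747 and 18533801 per library. The 10 SC and myoblast markers examined, among them Pax7, Myod1, Myf5 and Des, were above 1 TPM in every library and summed to between 2396 and 3693 TPM. The 8 fibroblast markers with values were above 1 TPM in every library as well and summed to between 1204 and 1747 TPM, so fibroblast transcripts were present in these preparations. The 5 macrophage and leukocyte markers summed to between 25.9 and 55.7 TPM, most of it Cd68, with Csf1r at 2.31 to 4.55 TPM and Ptprc, Adgre1 and Aif1 at or below 0.38 TPM. The 5 endothelial markers summed to between 2.41 and 4.14 TPM, with Cdh5 above 1 TPM in every library, and the 4 fat cell markers to between 1.93 and 6.50 TPM, with Pparg above 1 TPM in every library. Replicates 1 and 2 stood apart from replicates 3 and 4 in both groups. Fibroblast markers summed to at most 1295 TPM in the former and at least 1478 TPM in the latter. Macrophage and endothelial sums were likewise lower in every library of replicates 1 and 2, and the fat cell and SC and myoblast sums were higher. In these bulk libraries, fewer cells of a type and less RNA per cell cannot be told apart.

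TPM is a transcript level scaled to transcript length and library size, so it may be compared between genes. Values are given first for 37°C and then for 4°C, as mean ± SD of 4 libraries. Pebp1 was the most abundant of the 9 genes, at 304 ± 4.96 and 309 ± 7.26 TPM. Acsl4 followed at 105 ± 6.41 and 109 ± 2.15 TPM, and Acsl3 at 79.9 ± 14.6 and 83.5 ± 21.6 TPM. Acsl4 was above Acsl3 in 8 of 8 libraries although their ranges overlapped. Lpcat3 had 49.0 ± 6.34 and 49.4 ± 7.29 TPM, Gch1 37.3 ± 1.65 and 37.6 ± 1.60 TPM, and Dhodh 33.9 ± 2.76 and 36.1 ± 5.09 TPM. Gch1 and Dhodh could not be put in order, since Gch1 was higher in only 5 of 8 libraries. Mboat1 had 27.8 ± 1.27 and 29.8 ± 3.49 TPM, below Dhodh in 8 of 8 libraries. The lowest levels were those of Mboat2, 11.8 ± 1.5 and 9.82 ± 1.46 TPM, and Aifm2, 8.03 ± 0.811 and 8.03 ± 1.63 TPM. Their ranges overlapped, and Mboat2 was the higher in 7 of 8 libraries. The counts of the 9 genes were whole numbers in all 8 libraries to the precision of the table, and how shared reads were assigned is not given in the sources used here.

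**Figure D1:**
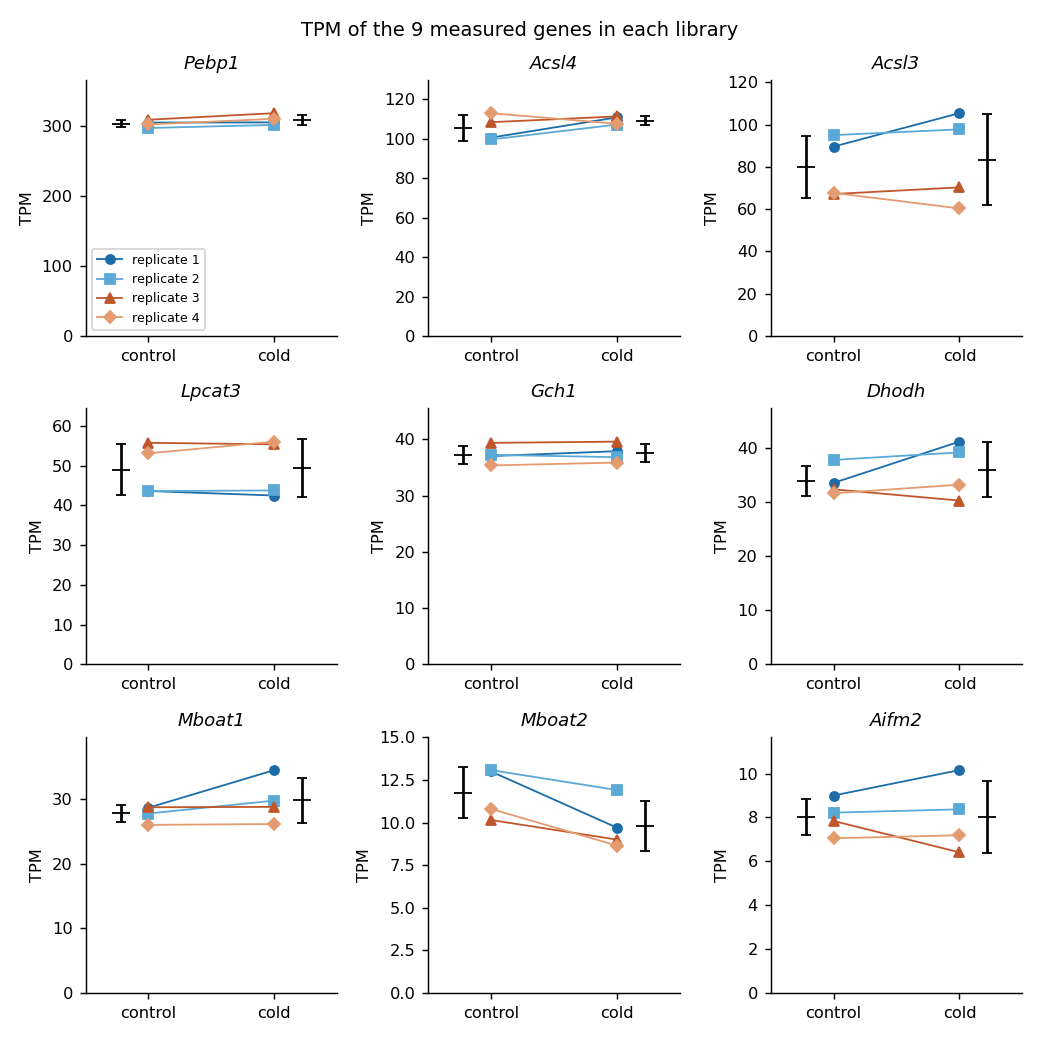
TPM (vertical axes, each from 0) of the 9 measured genes in control and cold libraries, with a line joining the libraries of one replicate number and black marks for the group mean ± SD (n = 4). Mboat2 falls along each of the 4 lines, while Acsl3 and Lpcat3 part replicates 1 and 2 from replicates 3 and 4 at both temperatures.

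Mboat2 (NCBI Gene 101829022) encodes a lysophospholipid acyltransferase that favours monounsaturated acyl chains. Its levels were 13.0, 13.1, 10.2 and 10.8 TPM in control replicates 1 to 4 and 9.70, 11.9, 9.0 and 8.65 TPM in cold replicates 1 to 4. The groups overlapped, since cold replicate 2 exceeded control replicates 3 and 4, but each cold library was lower than the control of its own number. On the log2 CPM scale, on which counts are divided by the TMM-normalized library size, the differences within the pairs were −0.48, −0.18, −0.18 and −0.27, so the 4 pairs shared the direction and pair 1 moved most. Of all genes tested, 12.8% were lower on this scale in 4 of 4 pairs. Without the block, edgeR gave a log2 fold change of −0.28 with a standard error of 0.14, which did not pass (adjusted p = 0.824). With the block it gave the same −0.28 with a standard error of 0.054, which passed (adjusted p = 0.00274). With a term for replicates 1 and 2 against 3 and 4 in place of the number, an alternative chosen after seeing the data, it passed as well (adjusted p = 0.0171). The 95% interval of the blocked value ran from −0.39 to −0.17, a level lower by 10.9% to 23.9%. A fall of at least this size in the blocked fit was found in 5.81% of all genes. DESeq2 with the block called it too (log2 fold change −0.28, adjusted p = 0.0122), and limma on log2(TPM + 0.1) with the block did not (log2 fold change −0.26, adjusted p = 0.279). The summed SC and myoblast markers were also lower in the cold library of each number, at 3674, 3693, 2841 and 2704 TPM in control and 2869, 3098, 2622 and 2396 TPM in cold replicates 1 to 4. Myog, a differentiation factor of myoblasts, made up 59.9% of the difference in this sum. With the block, edgeR called 5 of the 10 markers lower (Myog, Myod1, Cdh15, Itga7 and Chrna1) and 0 higher, where 4.07% of all genes were called lower, and without the block it called 0 of the 10. Pax7 and Myf5 were higher in TPM in 3 of 4 pairs. Of the 4 smooth muscle and pericyte markers only Acta2 was called with the block, at 1526 ± 401 TPM at 37°C and 1097 ± 145 TPM at 4°C (± SD of 4 libraries). Myh11, Rgs5 and Pdgfrb were not called, and without the block none of the 4 was, Acta2 included (edgeR adjusted p = 0.676). The part of these in the fall of Mboat2 was not tested.

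Mboat1 (101840516), its paralog with the same preference, had a higher mean in the cold without passing the test. It had 28.7, 27.8, 28.8 and 26.0 TPM in control and 34.5, 29.8, 28.8 and 26.2 TPM in cold replicates 1 to 4. Cold replicate 1 was the highest of the 8 and the other cold libraries lay within or near the control range. In TPM the cold library was the higher in 4 of 4 pairs, as in 12.8% of all genes tested, and on the log2 CPM scale in 3 of 4. Its log2 fold change was 0.078 in the blocked fit (standard error 0.049, 95% interval −0.025 to 0.18, edgeR adjusted p = 0.442). The ratio of Mboat2 to Mboat1 TPM was 0.453, 0.471, 0.353 and 0.415 in control replicates 1 to 4. In the cold it was 0.281, 0.400, 0.312 and 0.331, lower in 4 of 4 pairs. Its mean was 0.423 ± 0.0521 at 37°C and 0.331 ± 0.0503 at 4°C (± SD of 4 libraries). The mean log2 ratio differed by −0.36, which did not pass an exact two-sided permutation test (p = 0.0571), whose smallest possible p with 4 libraries against 4 is 0.0286. The ratio within the pairs moved alike in all of them, but an exact sign-flip permutation test over 4 pairs cannot go below the p = 0.125 it gave.

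**Figure D2:**
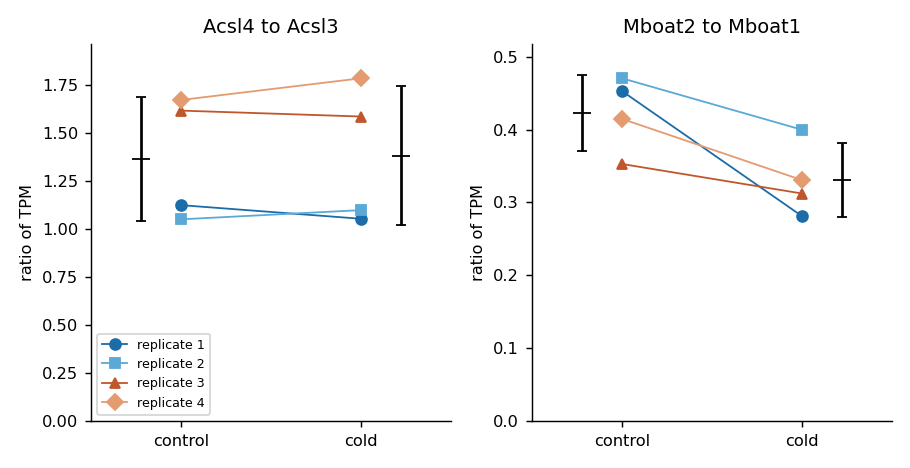
Ratio of TPM between paralogs in each library, Acsl4 to Acsl3 on the left and Mboat2 to Mboat1 on the right (vertical axes from 0), with lines joining libraries of one replicate number and black marks for the mean ± SD (n = 4). The Mboat2 to Mboat1 ratio falls in 4 of 4 pairs, from a mean of 0.423 to 0.331, whereas the Acsl4 to Acsl3 ratio lies at 1.05 to 1.12 in replicates 1 and 2 and at 1.58 to 1.78 in replicates 3 and 4.

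Neither acyl-CoA synthetase gene of the list passed the test, and the ratio between them did not pass either. Acsl4 (101841922), whose enzyme activates arachidonic acid, had 101, 99.7, 108 and 113 TPM in control and 111, 107, 111 and 108 TPM in cold replicates 1 to 4, with a blocked log2 fold change of 0.035 (95% interval −0.038 to 0.11, edgeR adjusted p = 0.656). Acsl3 (101831217), whose enzyme activates oleic acid among others, had 89.6, 95.1, 67.2 and 67.7 TPM in control and 105, 97.8, 70.4 and 60.4 TPM in cold replicates 1 to 4. Every library of replicates 1 and 2 was above every library of replicates 3 and 4, and cold libraries held both the highest and the lowest value. The unblocked 95% interval of its log2 fold change therefore ran from −0.43 to 0.51, and the blocked one from −0.069 to 0.13 around 0.028 (edgeR adjusted p = 0.814). The ratio of Acsl4 to Acsl3 TPM was 1.36 ± 0.323 at 37°C and 1.38 ± 0.361 at 4°C (± SD of 4 libraries). The mean log2 ratio differed by 0.0092 (exact two-sided permutation p = 0.943). Among the 5 ACSL genes measured, Acsl4 held 34.6% ± 2.53 of the summed TPM at 37°C and 34.5% ± 2.12 at 4°C, Acsl5 28.8% ± 3.54 and 29.6% ± 4.07, and Acsl3 26.2% ± 4.37 and 26.1% ± 5.19 (± SD of 4 libraries). Acsl1 held at most 9.35% and Acsl6 at most 3.03% in any library.

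Lpcat3 (101822631), whose enzyme inserts polyunsaturated acyl chains into lysophospholipids, showed the opposite replicate pattern to Acsl3. It had 43.6, 43.6, 55.8 and 53.1 TPM in control and 42.5, 43.8, 55.4 and 56.1 TPM in cold replicates 1 to 4. The 4 libraries of replicates 1 and 2 lay between 42.5 and 43.8 TPM and those of replicates 3 and 4 between 53.1 and 56.1 TPM, whatever the temperature. Its blocked log2 fold change was −0.0059 (95% interval −0.10 to 0.091, edgeR adjusted p = 0.967), and its sign turned between scalings. Lpcat3 was also the main acyltransferase transcript of its group, with 39.4% ± 2.40 of the summed TPM of Lpcat3, Mboat1, Mboat2 and Mboat7 at 37°C and 39.3% ± 3.18 at 4°C. Mboat2 held 9.58% ± 1.87 and 7.91% ± 1.66 of the same sum (± SD of 4 libraries).

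Of the coenzyme Q and tetrahydrobiopterin genes, none passed the test in either fit. Aifm2 (101841178) had 9.0, 8.22, 7.84 and 7.05 TPM in control and 10.2, 8.37, 6.41 and 7.19 TPM in cold replicates 1 to 4. Replicates 1 and 2 were again above replicates 3 and 4, and the cold libraries spanned the control range on both sides. With 250 to 421 counts per library it was the least deeply covered of the 9 genes. Its blocked log2 fold change of −0.026 had the widest 95% interval of the 9, from −0.19 to 0.13 (edgeR adjusted p = 0.907). Dhodh (101841457), which also serves pyrimidine synthesis, had 33.6, 37.9, 32.4 and 31.7 TPM in control and 41.3, 39.3, 30.4 and 33.3 TPM in cold replicates 1 to 4. The highest 2 values were cold and so was the lowest, and the blocked log2 fold change was 0.067 (95% interval −0.062 to 0.20, edgeR adjusted p = 0.622). Gch1 (101829850) was steady, with 37.0, 37.3, 39.4 and 35.4 TPM in control and 37.9, 36.8, 39.6 and 35.9 TPM in cold replicates 1 to 4. Each replicate number held nearly the same level at both temperatures. Its blocked log2 fold change was −0.0065 (95% interval −0.099 to 0.086, edgeR adjusted p = 0.963), and its sign differed between count and TPM scales.

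Pebp1 (101829102) varied least of the 9 genes in TPM relative to its level, while on the log2 CPM scale Acsl4 varied as little. It had 305, 297, 309 and 303 TPM in control and 306, 302, 319 and 311 TPM in cold replicates 1 to 4, and its highest library exceeded its lowest by a factor of 1.07. In TPM the cold library was higher in 4 of 4 pairs, as in 12.8% of all genes tested, whereas on the log2 CPM scale it was higher in 2 of 4. The blocked log2 fold change was 0.012 (95% interval −0.067 to 0.091, edgeR adjusted p = 0.912). For the 8 genes other than Mboat2 together, the 95% intervals of the blocked fit reached at most from −0.19 to 0.20, so that a level more than 12.2% lower or 14.5% higher lay outside the interval of each. Without the block the intervals of the same 8 genes reached from −0.43 to 0.51, so these limits hold for the blocked fit only.

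**Figure D3:**
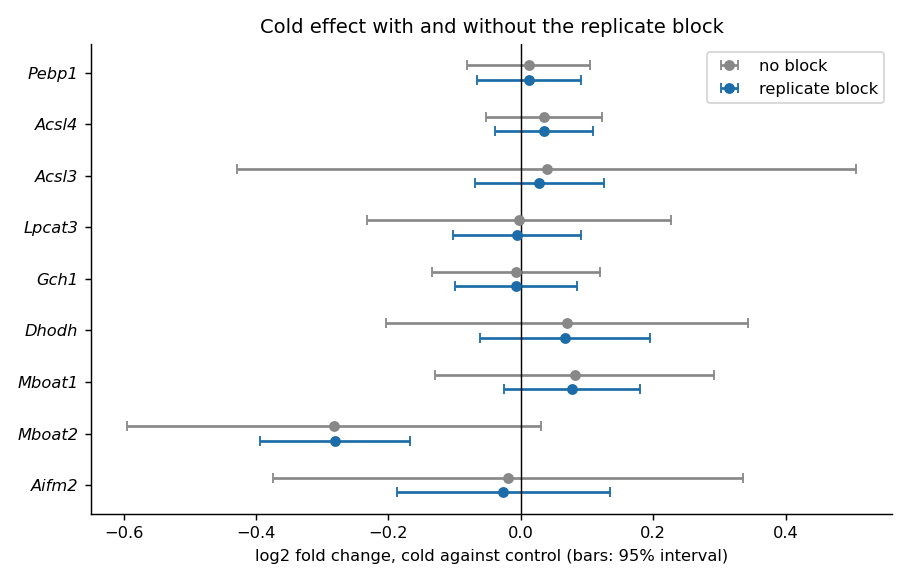
Log2 fold change of each gene, cold against control (horizontal axis), with 95% intervals from edgeR without a block (grey) and with the replicate number as a block (blue). The blocked interval of Mboat2, −0.39 to −0.17, is the only one of the 18 drawn that leaves out 0.

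For each of the 9 genes except Acsl4, the replicate number held more of the variation among libraries than the condition did. The replicate number has 3 degrees of freedom and the condition 1. The shares are not divided by these, which favours the replicate number. Over the 8 libraries, the replicate number held 96.7% of the sum of squares of log2 CPM for Acsl3, 92.9% for Lpcat3, 86.8% for Aifm2, 86.0% for Gch1, 83.2% for Dhodh and 82.6% for Mboat1. The median over all genes tested was 64.8%. For Mboat2 the replicate number held 61.2% and the condition 32.5%, against a median of 7.31% for the condition over all genes. Acsl4 and Pebp1 varied too little for such shares to carry much. Their SD over the 8 libraries was 0.031 and 0.032 on the log2 CPM scale, where counting error alone gives about 0.018 and 0.024. In 5 of the 9 genes (Acsl3, Lpcat3, Mboat1, Aifm2 and Dhodh), every library of replicates 1 and 2 lay on one side of every library of replicates 3 and 4 on the log2 CPM scale, as in 33.9% of all genes. Acsl3, Mboat1, Aifm2 and Dhodh were higher in replicates 1 and 2, and Lpcat3 was lower. The largest such gap was that of Acsl3, whose mean was 97.0 TPM in replicates 1 and 2 and 66.4 TPM in replicates 3 and 4. The fibroblast, macrophage, endothelial, fat cell and SC and myoblast marker sums given above all part the libraries in the same way, and their part in it was not tested. The treatment labels of the controls tie the number to 3, 4, 5 and 6 days at 37°C, the cold labels tie it to nothing, and the part of culture time in this division was not tested.

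**Figure D4:**
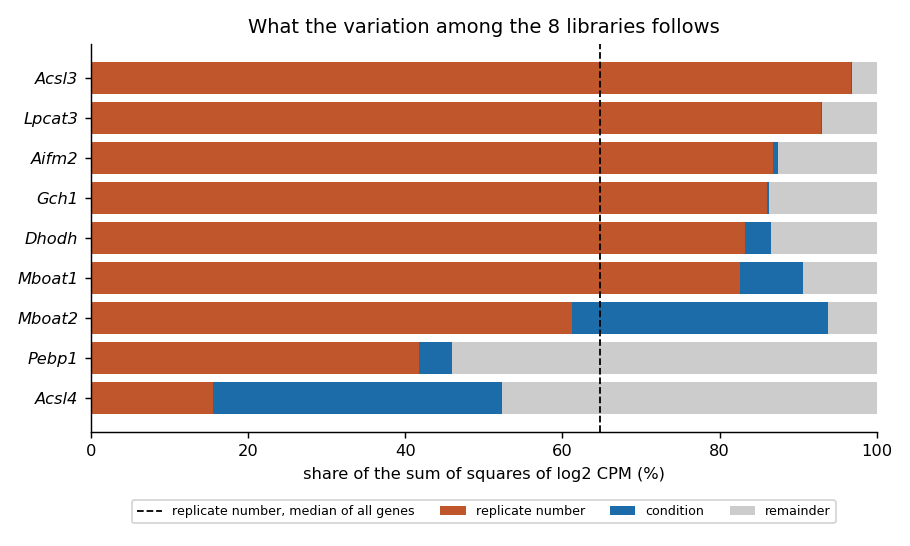
Share of the sum of squares of log2 CPM over the 8 libraries (horizontal axis, percent) that follows the replicate number, the condition or neither, for each gene. The dashed line marks the median replicate share of all genes tested, 64.8%, which 6 of the 9 genes exceed, and the condition share runs from 0.0773% for Lpcat3 to 32.5% for Mboat2 and 36.7% for Acsl4, which varied little in all.

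Other genes of these pathways were taken from a list of 60 symbols, of which 50 had values and 47 were tested. With edgeR, 0 of the 47 had an adjusted p under 0.05 without the block and 0 with it, where 0.072% and 5.33% of all genes did. The count was also 0 with DESeq2 without and with the block. At an unadjusted p under 0.05 there were 0 without the block and 1 with it in edgeR, where 6.7% and 18.2% of all genes passed. That gene, Coq8a of coenzyme Q synthesis, was singled out after its values were seen and had 59.4 ± 12.7 and 53.9 ± 14.8 TPM at 37°C and 4°C (± SD of 4 libraries), with a blocked log2 fold change of −0.16 (edgeR adjusted p = 0.0798). The median blocked log2 fold change of the 47 was 3.88e-05, beside 0.0075 over all genes tested. The 13 coenzyme Q genes had a median of −0.017, the 5 tetrahydrobiopterin genes tested 0.034, the 2 pyrimidine synthesis genes 0.017 and the 8 further acyl-CoA synthetases and acyltransferases 0.031. The 6 ether lipid genes tested had a median of 0.0031 and the 3 desaturases and elongases 0.023. The 3 lipid oxidation and phospholipase genes tested, Alox12b, Aloxe3 and Pla2g6, were at most 3.84 TPM in any library and had a median of −0.18. Of the 7 genes of the GPX4 arm, which had a median of 0.040, Gpx4 itself had 201 ± 10.7 TPM at 37°C and 195 ± 12.1 TPM at 4°C, and Slc7a11, the cystine transporter gene, 1.59 ± 0.209 and 1.54 ± 0.133 TPM (± SD of 4 libraries). Neither passed the test, with blocked adjusted p-values of 0.579 and 0.866 in edgeR.

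**Figure D5:**
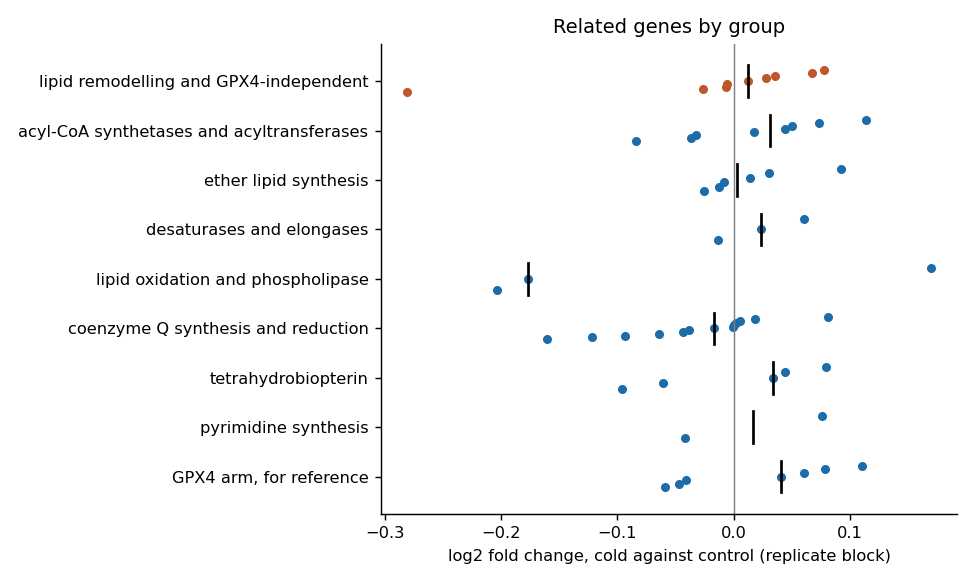
Log2 fold change, cold against control, from the edgeR fit with the replicate block (horizontal axis) for the 9 genes described here (top row, orange) and for 47 related genes by group (blue), with a black bar at the median of each group. Mboat2, at −0.28, lies farthest from 0, and the related genes lie between −0.20 and 0.17.

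For each of the 9 genes, the tested gene with the most similar profile over the 8 libraries was sought among 10478 named genes with a mean of at least 1 TPM, as the smallest root mean square difference of mean-centred log2 CPM. Sbk1, a kinase gene, was nearest to Mboat2, at a difference of 0.049. Sbk1 had 54.9 ± 6.49 TPM at 37°C and 46.5 ± 6.17 TPM at 4°C (± SD of 4 libraries), a blocked log2 fold change of −0.26 (edgeR adjusted p = 0.000288). It was picked for its likeness to Mboat2 over these same libraries, so its fall and its p-value are no separate evidence. The gene nearest to Lpcat3 was Mboat7, of the same acyltransferase family, at 0.025. Mboat7 had 35.4 ± 4.14 and 36.3 ± 5.36 TPM at 37°C and 4°C (± SD of 4 libraries). Nrip3 was nearest to Acsl3 (0.066), Nedd4 to Acsl4 (0.013), Dlg5 to Mboat1 (0.038), Lrrc28 to Aifm2 (0.052), Tenm3 to Dhodh (0.044), Anapc2 to Gch1 (0.023) and Dctn2 to Pebp1 (0.022). Between 15 and 244 genes lay within 2 times the smallest difference of each gene, so other neighbours were nearly as close.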

How the data were processed

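RNA-seq was performed on 4 control and 4 cold libraries (paired-end reads, DNBSEQ-G400). The authors deposited one table. Its expected counts, made by the authors, are not normalized and were mostly whole (96.4% to 96.6% of values per library). Its TPM values were scaled within each library by the authors. A further set of columns deposited there, a signal made from the counts with one scaling factor per library, was not used. The submitters' processing notes name HISAT and HISAT2, and the counting program and genome build are not given in the sources used here. Gene symbols were those of the table, and the identifiers of the 9 genes matched a RefSeq annotation (BCM_Maur_2.0) used for names only.

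After rounding of the expected counts, cold and control libraries were compared in edgeR 4.0.16 (R 4.3.3): filterByExpr, TMM, quasi-likelihood F test, Benjamini-Hochberg adjustment over 12506 genes. Standard errors were derived from F, as the size of the log2 fold change over the root of F. Ratios of TPM were tested by an exact two-sided permutation test (70 arrangements, scipy 1.17.1). Alternatives used DESeq2 1.42.0 and limma 3.58.1. The edgeR procedure was also run on counts simulated from the blocked fit, with planted changes larger than that of Mboat2. That run does not bear on a change as small as that of Mboat2, nor on whether the block is right. Counting error was taken as the Poisson SD at the mean count, and covers no other error, as reads were counted without molecular identifiers. Figures were drawn with matplotlib 3.10.9.

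Replicate numbers 1 to 4 appear in the titles of both groups. Across genes, which are not independent replicates, deviations from the group mean correlated at 0.598, 0.595, 0.632 and 0.642 between control and cold libraries of one number, so the numbers were taken to pair the libraries. Libraries of unlike number within 1 and 2, or within 3 and 4, correlated at 0.430 to 0.574, and libraries across this division at −0.595 to −0.540, so much of the pairing is the division. The study calls the libraries biological replicates without saying whether each was a separate animal or culture, so p-values measure only the spread between these libraries. The genes, related lists, naming rule and tests were chosen with earlier results of these data known. Every gene of the list found in the table is named, with, for each, the most similar gene, genes named only by a LOC number left aside. Of the related genes, Gpx4 and Slc7a11 were to be named and up to 4 per group with an adjusted p under 0.05, of which there were none. Coq8a, Alox12b, Aloxe3, Pla2g6, the other ACSL genes and the marker genes were named outside this rule, after their values were seen.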

Additional observations from a re-analysis of the deposited data

How the results depend on the processing

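The call of Mboat2 rests on taking the replicate number, or the division of numbers 1 and 2 from 3 and 4, into the fit. With the replicate block, edgeR called 667 genes in place of 9, and 1 of the 9 lipid genes, Mboat2, in place of 0. The block changed no other call among the 9. Mboat2 was lower in 27 of 27 alternatives. It was called in 10 of them, namely the 7 edgeR fits with the block, the DESeq2 fit with the block, the fit with a term for replicates 1 and 2 against 3 and 4, and the fit to replicates 1 and 2 only. Of these, the blocked fits with library totals and with RLE factors and the fit with that term were chosen after seeing the data. All alternatives reuse the same libraries, so they are not independent. Mboat2 was not called by limma with the block, in replicates 3 and 4 only (adjusted p = 0.587), or in any of the 15 other unblocked fits, where its adjusted p ranged from 0.602 to 1.0. The other 8 genes were called in none of the alternatives.

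Over all genes, and without the block, the number called was 14 with library totals as the scaling, 142 with DESeq2, 25 without a filter on low counts, 4 with a stricter filter, and 3 and 4 with limma at pseudocounts of 0.1 and 1. It was 1442 in replicates 1 and 2 only and 50 in replicates 3 and 4 only. With the block it was 360 with DESeq2, 29 with limma, and, in fits chosen after seeing the data, 673 with library totals and 659 with RLE factors. It was 435 with the term for replicates 1 and 2 against 3 and 4, also chosen after seeing the data. Each of these but limma called 1 of the 9 genes. The cause of these differences was not tested. Leaving out 1 library without the block gave 0 to 46 genes and 0 of the 9. The 46 came without control replicate 3, and the count fell by over 1.5 times when any other library was left out. Leaving out 1 replicate number with the block gave 356 to 927 genes and 1 of the 9.

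Each of the 8 genes other than Mboat2 turned its sign in at least 1 alternative. Without single libraries or replicate numbers, the log2 fold change ranged from −0.098 to 0.17 for Acsl3, 0.014 to 0.056 for Acsl4, −0.068 to 0.059 for Lpcat3, −0.0028 to 0.14 for Mboat1, −0.16 to 0.078 for Aifm2, −0.0075 to 0.15 for Dhodh, −0.049 to 0.014 for Gch1 and −0.0071 to 0.024 for Pebp1. The log2 difference of the Acsl4 to Acsl3 ratio ranged from −0.13 to 0.13 and that of the Mboat2 to Mboat1 ratio from −0.45 to −0.28. In replicates 3 and 4 only, the log2 fold change was −0.031 for Acsl3, −0.00039 for Acsl4, 0.047 for Lpcat3 and 0.028 for Gch1. In replicates 1 and 2 only it was 0.048 for Aifm2 and −0.038 for Pebp1. Lpcat3 was at 0.0013 with library totals. With limma, Lpcat3 was at 0.0090 and Gch1 at 0.011 at a pseudocount of 0.1, with and without the block, and at 0.0088 and 0.011 at a pseudocount of 1. Depth limits Aifm2 most, with as few as 250 counts in a library.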
